A study of Mus musculus with 3 samples.

Results

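Periostin, the tenascins, the thrombospondins, SPARC and the SMOC proteins are matricellular proteins, and their transcripts were examined in the proximal incisor mesenchyme of DKO mice. The 10 genes are Postn, Tnc, Tnn, Tnxb, Thbs1, Thbs2, Sparc, Sparcl1, Smoc1 and Smoc2. They were chosen by gene family, by symbol, and all 10 were found among the 19381 genes of the deposited table. Bulk RNA sequencing covered 3 DKO libraries, replicates 1 to 3, and no other group. All 3 carried Gli1-CreER with Arid1a and Arid1b both floxed (Gli1-CreER;Arid1afl/fl;Arid1bfl/fl). The mice were 1 month old, had received tamoxifen at 1.5 mg per 10 g of body weight, and the tissue was collected 4 days after induction. The Cre acts in cells that use the Gli1 promoter, while RNA came from the whole piece of tissue, so cells with and without recombination contribute to every value. Mice without the deletion were not analysed here, and no statement about the effect of the deletion can be drawn. Separate animals are not named for the libraries in the labels, so an SD here, like a p-value, reflects library-to-library variation that could be purely technical.

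Matricellular proteins are secreted into the extracellular matrix, where they bind collagens, growth factors and cell surface receptors and modulate how cells attach and respond, rather than forming the main load-bearing fibres. Periostin, tenascin C and SPARC are typical of growing or remodeling connective tissue, including the periodontal ligament, dental pulp and developing bone. Several of these genes, Postn, Tnc and Thbs1 among them, are known to be induced by TGF-beta in fibroblasts.

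The promoter of Tnc is shown because Tnc was the steadiest between libraries among the members with a mean of at least 10 and was second in level. The sequence is the 250 bases before an annotated RefSeq start in the GRCm38.p6 build, 5′ to 3′ on the strand of the gene. Capitals mark matches to any of 5 motifs searched on both strands, the TATA box TATAAA, the CCAAT box CCAAT, the GC box GGGCGG, the Smad element CAGAC and the AP-1 element TGANTCA. It is read from chr4:64047016-64047265 on the minus strand.
Tnc: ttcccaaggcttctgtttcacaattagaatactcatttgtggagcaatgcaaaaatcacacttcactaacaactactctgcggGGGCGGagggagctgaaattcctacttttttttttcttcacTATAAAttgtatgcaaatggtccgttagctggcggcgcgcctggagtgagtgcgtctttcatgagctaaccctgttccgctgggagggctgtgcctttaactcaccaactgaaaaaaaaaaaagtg
Tnc held TATAAA from 126 to 121 bases before this start. This motif was present in 12.4% of the 32851 promoter windows of the same length. Tnc also held a GC box from 167 to 162 bases before it, a motif found in 32.7% of all windows. The window of Thbs2 held TATAAA on the opposite strand, CCAAT, present in 33.8% of all windows, on both strands and 2 Smad elements, a motif of 42.2% of all windows, and that of Tnxb held 2 Smad elements and the AP-1 element, which 6.75% of windows hold. The window of Sparc held 1 Smad element from 35 to 31 bases before the annotated start used, base 55420080. That start lies inside the gene (55394500 to 55423184), and 238 of the 250 bases of the window lie inside annotated exons. The Tnxb start used, base 34670535, also lies inside its gene (34660457 to 34719816). Neither window lies upstream of the whole gene. A second annotated start of Tnc, whose window overlaps the one shown, added a Smad element from 70 to 66 bases before it. Of that window, 79 bases lie inside annotated exons. Variants of the 5 motifs, such as other TATA sequences, were not searched. Windows of 4 of the 10 genes were examined. The matches describe letters and are not evidence of binding.

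Sparc, Tnc and Postn made up most of the matricellular signal. Values are normalized, upper-quartile-scaled units as deposited unless a length is named, and they are given in the order of replicates 1, 2 and 3. The 10 genes together summed to 5219, 5706 and 7279 units, which was 0.529%, 0.595% and 0.753% of the library totals. Sparc, Tnc and Postn accounted for 83.3%, 84.4% and 82.1% of that sum. At the other end, Smoc1 lay near 10 units and Tnxb below 1 unit in every library.

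**Figure D1:**
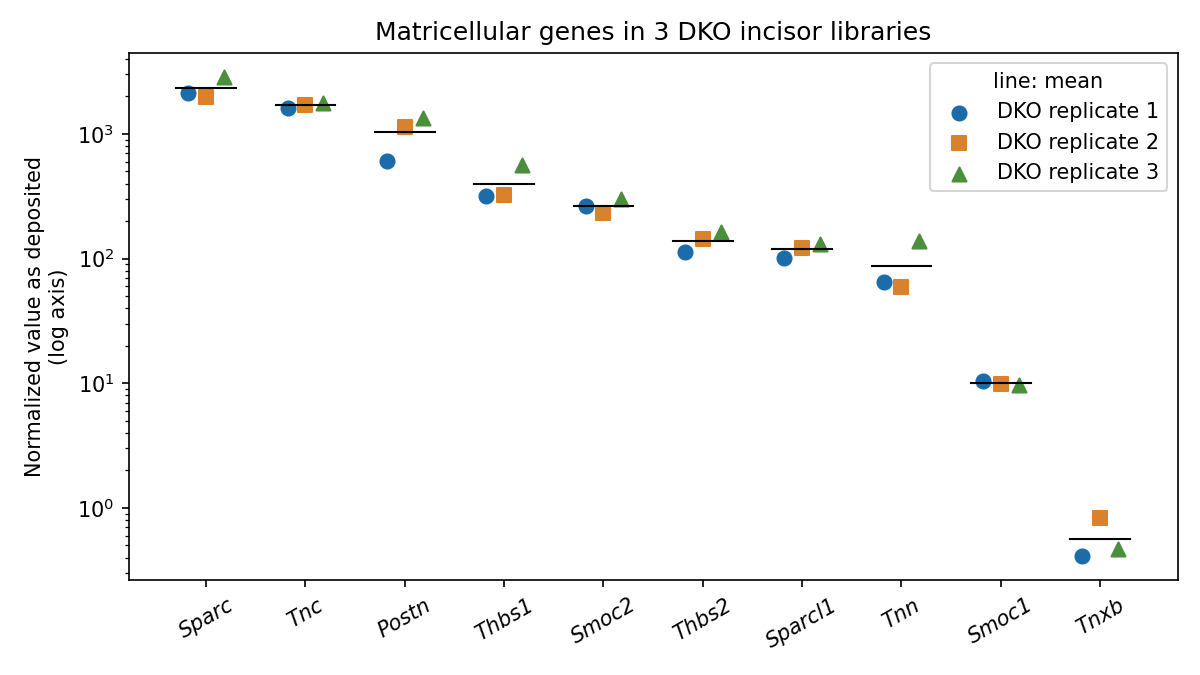
Normalized value as deposited (vertical log axis) of the 10 matricellular genes in DKO replicates 1, 2 and 3 (points), with the mean of the 3 libraries as a line. Sparc is highest at a mean of 2319 and Tnxb lowest at 0.566, and replicate 3 is the highest point for 8 genes.

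Sparc encodes a collagen-binding glycoprotein abundant in mineralizing tissues. Sparc (chromosome 11, 55394500 to 55423184, mm10) stood at 2128, 1962 and 2865 units (2319 ± 481, SD, n = 3). Replicate 3 was 1.40 times the mean of the other libraries. Its relative Sparcl1 (chromosome 5, 104079111 to 104113734), a SPARC-like protein often seen in vessel-associated cells, stood at 102, 122 and 132 units (118 ± 15.1, SD, n = 3), lowest in replicate 1. Divided by exon length, Sparc averaged 612 ± 127 and Sparcl1 40.3 ± 5.14 units per kilobase. The within-library log2 difference of Sparc minus Sparcl1 per kilobase was 3.90 ± 0.23 (SD), a 14.9-fold difference with Sparc higher in 3 of 3 libraries, and was 4.53 with the length of the longest transcript.

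Tenascin C forms a large oligomer that interferes with cell adhesion to fibronectin. Tnc (chromosome 4, 63959785 to 64047016) stood at 1610.2, 1715 and 1774 units (1700 ± 83.1, SD, n = 3). Its coefficient of variation was 4.89%, below the median of 7.20% over the 10388 genes with a mean of at least 10. Tnn (chromosome 1, 160085029 to 160153581), which encodes tenascin W and is linked to bone and to stem cell niches, stood at 64.7, 58.7 and 139 units (87.4 ± 44.7, SD, n = 3). Replicate 3 held 2.25 times the mean of the other libraries, which lay close to each other. Tnxb (chromosome 17, 34660457 to 34719816), the tenascin X gene of loose connective tissue, stood at 0.408, 0.824 and 0.466 units. If the smallest value of each library stands for 1 read, these are 14, 30 and 20 reads, with counting errors of 26.7%, 18.3% and 22.4%, so its 2.02-fold span rests on few reads. Tnc minus Tnn was 3.96 ± 0.63 on the log2 scale per kilobase and Tnc minus Tnxb 10.75 ± 0.19, with Tnc higher in 3 of 3 libraries for both. The pseudocount of 1 exceeds the values of Tnxb and shrinks the difference from it, which was 12.27 with a pseudocount of 0 and 7.99 with 10. Tnr, the tenascin R gene of the nervous system, was at 30.4, 25.6 and 27.2 units, or 2.16 ± 0.191 per kilobase, and was singled out after its values were seen.

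Periostin, a fasciclin-domain protein that binds collagen I and promotes collagen crosslinking, was the member whose replicate 1 lay furthest below the rest. Postn (chromosome 3, 54361109 to 54391038) stood at 609.6, 1139 and 1337 units (1028 ± 376, SD, n = 3), so replicate 1 held 0.492 of the mean of the others. Relative to Tnc in the same library and per kilobase of exon, Postn was at 0.338, 0.593 and 0.673. These ratios depend on the length used. With the longest transcript, 5223 bases for Postn and 7106 for Tnc, they were higher and Postn passed Tnc in replicate 3. Tgfbi, its closest fasciclin-domain relative, stood at 508, 324 and 377 units, highest in replicate 1, where Postn was lowest. Postn minus Tgfbi per kilobase was therefore -0.94 in replicate 1 and 0.60 and 0.62 in replicates 2 and 3, a mean of 0.09 ± 0.90 (SD) whose sign was not the same in all libraries. This difference depends on the length used, and was 0.50 with the longest transcript and 1.30, positive in 3 of 3 libraries (exact permutation p = 0.25), with no division by length.

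The thrombospondins bind CD36, CD47 and integrins, and thrombospondin 1 activates latent TGF-beta. Thbs1 (chromosome 2, 118111876 to 118127134) stood at 318, 323 and 561 units (400.4 ± 139, SD, n = 3). As for Tnn, replicate 3 was set apart, at 1.75 times the mean of the others. Thbs2 (chromosome 17, 14665500 to 14694236), which lacks the activating sequence, stood at 112, 143 and 163 units (139 ± 25.5, SD, n = 3). Thbs2 minus Thbs1 per kilobase was -1.68 ± 0.30 on the log2 scale, lower for Thbs2 in 3 of 3 libraries, which puts Thbs1 3.21-fold above Thbs2.

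The SMOC proteins are SPARC-related and modulate BMP signalling. Smoc2 (chromosome 17, 14279506 to 14404791) stood at 264, 234 and 298 units (265 ± 32.4, SD, n = 3), lowest in replicate 2 and highest in replicate 3. Smoc1 (chromosome 12, 81026808 to 81186415) stood at 10.5, 9.78 and 9.69 units (9.99 ± 0.436, SD, n = 3), just under the mean of 10 used as a minimum for measures of spread. Smoc2 minus Smoc1 per kilobase was 3.60 ± 0.19, a 12.1-fold difference with Smoc2 higher in 3 of 3 libraries. Its size depends on the settings, at 4.41 with the longest transcript, 4.59 with no division by length and 2.79 with a pseudocount of 10. An exact permutation test that flips the signs of the within-library differences (two-sided) returned p = 0.25 for the 5 differences with 1 sign and p = 1 for Postn minus Tgfbi, or 0.3 and 1 after Benjamini-Hochberg adjustment over the 6 differences. With 3 libraries, 0.25 is the smallest p this test can give.

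Per kilobase of exon, the order was Sparc, Tnc, Postn, Thbs1, Sparcl1, Smoc2, Thbs2, Tnn, Smoc1 and Tnxb. Means per kilobase were 612, 219, 118, 65.9, 40.3, 38.2, 19.9, 15.0, 2.86 and 0.0464 units. With exon length, the ranges over the libraries did not overlap between Sparc and Tnc or between Tnc and Postn. Postn and Thbs1 overlapped across libraries, at 70.0 to 154 and 52.4 to 92.3, although Postn was higher within 3 of 3 libraries. Sparcl1 and Smoc2, a factor of 1.06 apart, and Thbs2 and Tnn, 1.32 apart, were not separated by their ranges, and in each pair 1 library had the opposite order. Sparc supplied 56.5%, 50.2% and 55.3% of the summed per-kilobase signal of the 10 genes, Tnc 20.8%, 21.4% and 16.7% and Postn 7.05%, 12.7% and 11.2%. Among the 18948 genes with an exon length, 99.8% lay below Sparc per kilobase, 99.4% below Tnc, 98.8% below Postn, 47.0% below Smoc1 and 2.43% below Tnxb. When the length of the longest transcript was used, Smoc2 (3972 bases) moved above Sparcl1 (2759 bases), and their ranges no longer overlapped. Smoc2 was then also above Thbs1 in replicates 1 and 2, although not by its mean. The ranges of Tnc and Postn then overlapped, with Postn above Tnc in replicate 3, while those of Postn and Thbs1 did not. Several places in this order thus depend on the length used.

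**Figure D2:**
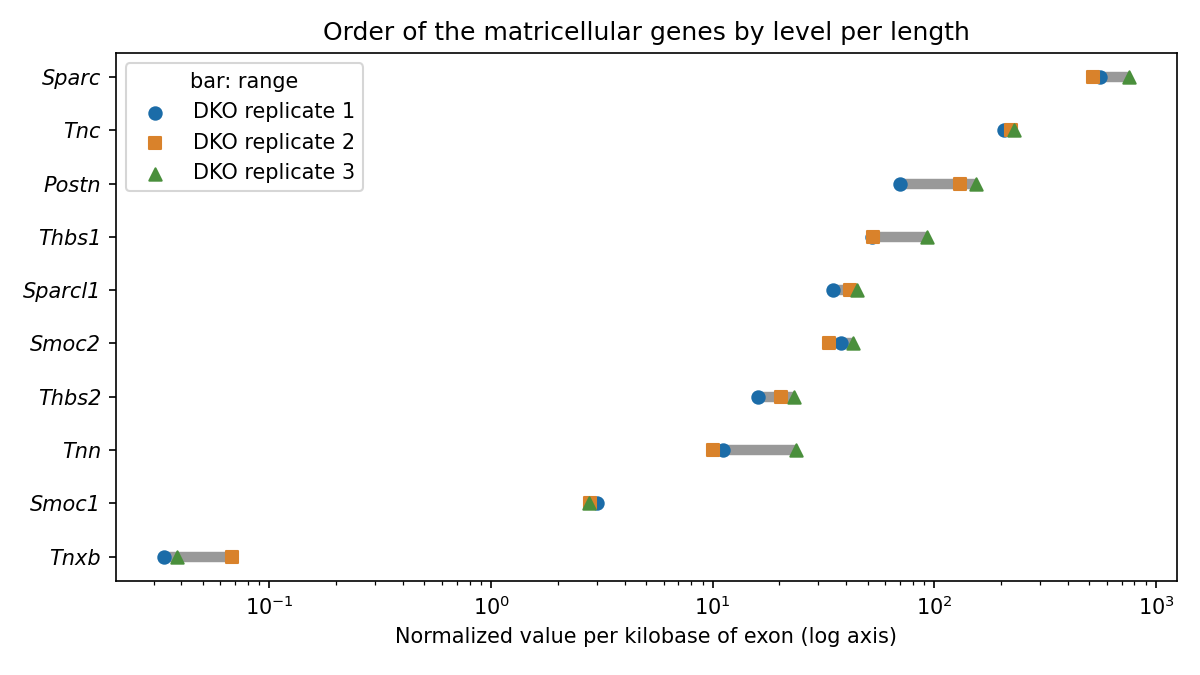
Normalized value per kilobase of exon (horizontal log axis) of the 10 genes in DKO replicates 1, 2 and 3 (points), with the range over libraries as a bar. The bars of Sparc (518 to 756) and Tnc (207 to 228) stand apart, while those of Sparcl1 (34.8 to 44.9) and Smoc2 (33.6 to 42.9) overlap.

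Replicate 3 held the highest value of all 8 members with a mean of at least 10, whereas over all 10388 such genes 34.6% were highest in replicate 3. The 2 members under that mean went otherwise, Smoc1 being highest in replicate 1, as were 31.2% of all genes with a mean of at least 10, and Tnxb in replicate 2, as were 34.2%. The margin was small for Tnc, at 1774 in replicate 3 and 1715 in replicate 2, and wide for Tnn and Thbs1. Of the 8, 5 were lowest in replicate 1 and 3, namely Tnn, Sparc and Smoc2, in replicate 2. Over all genes 38.1% were lowest in replicate 1, 27.8% in replicate 2 and 34.2% in replicate 3. The 8 members are genes of overlapping cell types in the same 3 libraries and are not independent of each other.

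Spread between libraries was wider for most members than for the typical gene. Tnn, Postn and Thbs1, 3 of the 8, had a span, the ratio of the highest to the lowest library, of at least 1.5-fold, at 2.37, 2.19 and 1.76, against 6.15% of all genes with a mean of at least 10. Tnn and Postn also passed 2-fold, which 1.86% of all genes did. The median ratio was 1.46 over the 8 members and 1.15 over all genes. Tnc, at 1.10, was more even than each of the other 7, and 32.2% of genes had a smaller ratio. Sparc (1.46) and Thbs2 (1.45) lay just under the limit, and Sparcl1 and Smoc2 were at 1.29 and 1.28. Without replicate 3 only Postn remained past 1.5-fold, a count of 1, and without replicate 1 the count was 2. The share over all genes with a library left out is not given here, and the 6.15% holds for all 3 libraries only. Replicate 3 was at least 1.5 times the mean of replicates 1 and 2 for Tnn and Thbs1, against 0.77% of all genes. Replicate 1 was below the mean of replicates 2 and 3 by at least the same factor for Postn, against 1.4% of all genes. If the smallest value were 1 read, which could not be settled, counting error alone would be at most 2.16% for Tnn, 0.957% for Thbs1 and 0.691% for Postn, which leaves out library preparation.

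**Figure D3:**
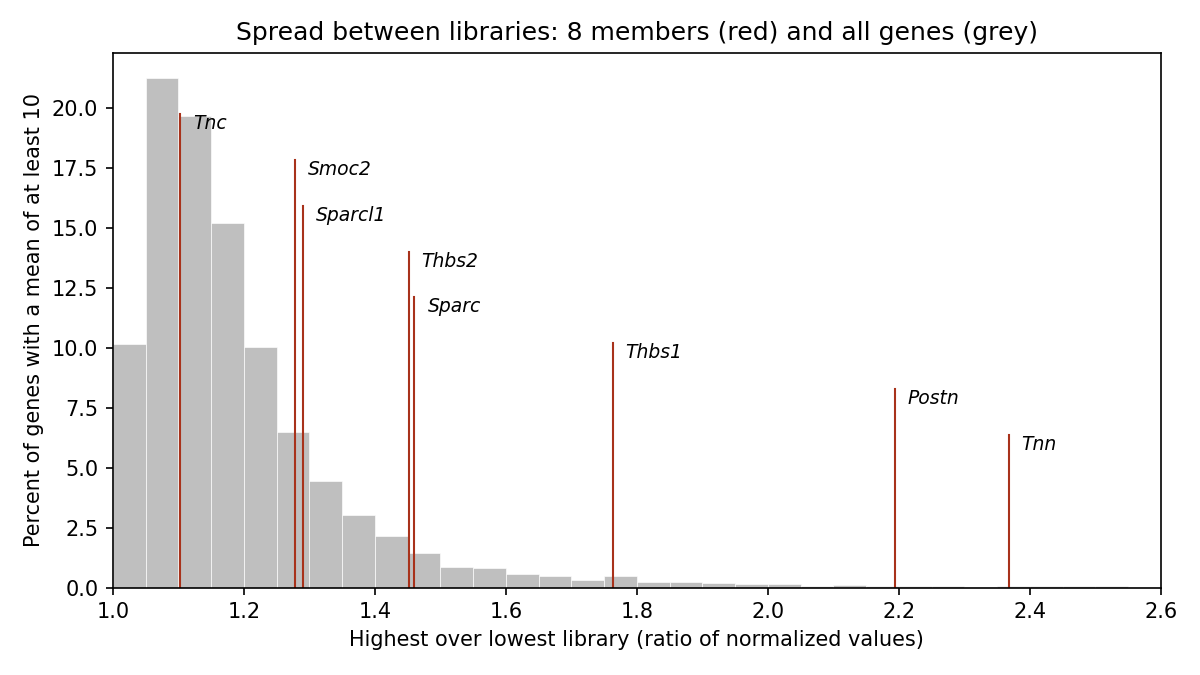
Share of all genes with a mean of at least 10 (vertical axis, percent) by the ratio of the highest to the lowest library (horizontal axis), in grey, with the 8 matricellular genes that reached this mean as red lines whose heights carry no value. Tnc sits at 1.10 within the bulk of genes and Thbs1, Postn and Tnn in the right tail at 1.76, 2.19 and 2.37, and 102 genes beyond 2.6 are not drawn.

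Cell type markers also differed between the libraries, and in bulk tissue fewer cells of a type and less RNA per cell cannot be told apart. Markers of tooth mesenchyme (Prrx1, Pdgfra, Msx1 and Twist1) summed to 1442, 1565 and 1553 units, a 1.09-fold span. All 4 had a mean of at least 10, against 10388 of all 19381 genes, so markers of the labelled tissue were present. Single members differed more than the sum, with Msx1 at 272, 214 and 235 and Twist1 at 43.1, 52.0 and 57.8 units, and their median span of 1.24 was above the 1.15 of all genes. All 5 endothelial markers were highest in replicate 3, as the 8 matricellular genes and 34.6% of all genes were, and summed to 294, 312 and 418 units. Mural markers summed to 739, 739 and 836, with 3 of 6 highest in replicate 3, against the same 34.6%. Macrophage markers, all 5 lowest in replicate 1 as Postn and 38.1% of all genes were, summed to 728, 996 and 1035 units. Proximal niche markers summed to 2271, 3654 and 3736, most of it Igfbp5. The other 3 of the 4, Gli1, Igf2 and Fgf10, were highest in replicate 1, against 31.2% of all genes. The margin was small for Igf2, at 428 in replicate 1 and 420 in replicate 3. The part of these cell types in the matricellular values was not tested.

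Other lists went in various directions. Pulp markers summed to 2643, 3090.4 and 3327 units, lowest in replicate 1, while Nes was lowest in replicate 2 at 166, 113 and 169. Markers of osteoblasts and osteocytes summed to 653, 313 and 678 units, lowest in replicate 2 as Bglap was, while Ibsp was lowest in replicate 1 at 15.6, 27.3 and 30.9. Odontoblast markers summed to 5532, 1339 and 4018 units, a sum led by Dspp and lowest in replicate 2, while Sp7 was lowest in replicate 3 at 187, 182 and 176. Replicate 2 was the library where Sparc, Tnn and Smoc2, 3 of the 8 members, were also lowest, against 27.8% of all genes. Postn stood at 1139 there, and the part of odontoblasts in these values was not tested. Dental epithelium markers were highest in replicate 2 for all 5 genes, against 34.2% of all genes, at sums of 496, 704 and 503. Interferon response genes were highest in replicate 1 for all 4, against 31.2% of all genes, at sums of 742, 131 and 128 units, in the library where Postn, Thbs1, Thbs2, Sparcl1 and Tnc were lowest, and their part was not tested. Markers of the dental follicle and periodontal ligament were low, with Aspn at 11.7 ± 0.585, Tnmd at 4.57 ± 2.00 and Scx at 0.106 ± 0.0273 units. Postn, which is also abundant in that tissue, averaged 1028, and the part of that tissue in the Postn values was not tested. Of the 3 platelet markers found, a cell that carries thrombospondin 1, Pf4 was at 18.9 ± 3.13, Itga2b at 1.09 ± 0.124 and Ppbp at 0.0868 ± 0.0514 units, and the part of platelets in the Thbs1 values was not tested. Immediate early genes, a list added after the values were seen, summed to 57.0, 79.3 and 83.9 units, lowest in replicate 1. Cartilage markers summed to 249, 187 and 184 units, most of it Sox9 (224, 169.7 and 168), while Col2a1 was at 3.23, 4.97 and 5.08.

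**Figure D4:**
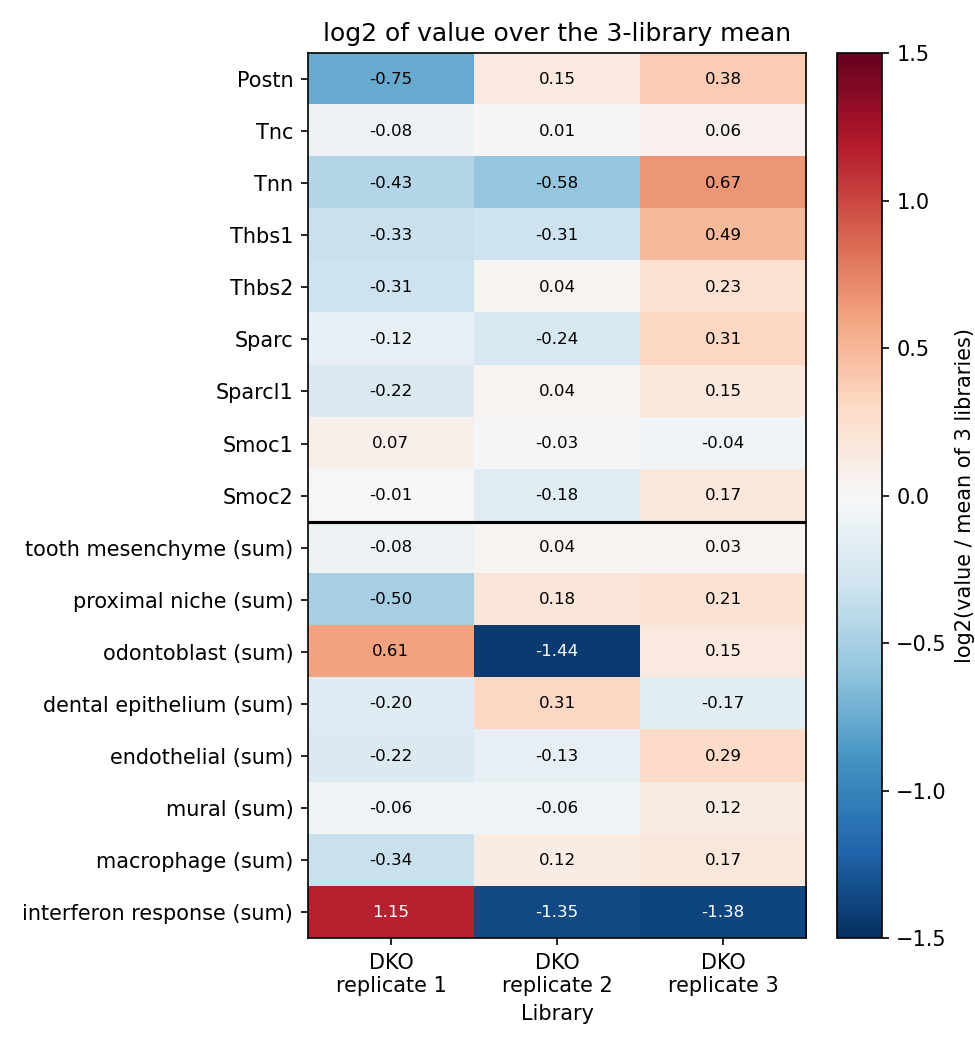
log2 of the value over its 3-library mean (colour and printed number) for 9 matricellular genes and, under the line, for summed marker lists in DKO replicates 1, 2 and 3, with Tnxb left out as below 1 unit. Tnn (0.67) and Thbs1 (0.49) are raised in replicate 3, Postn (-0.75) is low in replicate 1, and the interferon list (1.15) is high in replicate 1.

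Relatives of these genes were present at widely different levels. All 9 relatives were listed and 7 had a mean of at least 10, against 10388 of all 19381 genes. Fstl1, a secreted SPARC-family glycoprotein, stood at 1869, 2046 and 2126 units, or 409.8 ± 26.7 per kilobase, a level per length between those of Tnc (219) and Sparc (612). Spock2 and Thbs3 averaged 125 ± 13.7 and 68.3 ± 7.23 units. Thbs4, a thrombospondin of tendon and muscle, was at 7.78, 8.82 and 18.1 units, with replicate 3 highest as for Thbs1, and it and Tgfbi were the 2 of the 7 with a span of at least 1.5-fold, against 6.15% of all genes. Among the other matricellular genes, 6 of 11 with a mean of at least 10 had such a span, against 6.15% of all genes, and Tgfbi is counted in this list too. Ccn2, a connective tissue growth factor, stood at 139, 227 and 222 units and Ccn1 at 12.4, 18.96 and 24.4, both lowest in replicate 1 as Postn was. Ccn4 (109, 51.6 and 105), Fbln7 (55.6, 16.9 and 34.8) and Tgfbi were lowest in replicate 2, and Spp1, the osteopontin gene, was highest there at 48.8, 87.5 and 59.7. Fbln2 and Fbln1 averaged 172 ± 26.7 and 133 ± 10.3 units.

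Of the 26 receptors of these proteins, 22 had a mean of at least 10, against 10388 of all 19381 genes. Of the 22, 15 were lowest in replicate 1, against 38.1% of all genes, and 13 were highest in replicate 3, against 34.6%. A span of 1.5-fold was reached by 1 of them, a share near the 6.15% of all genes, namely Stab1, a scavenger receptor of macrophages that takes up SPARC, at 162, 244 and 295 units. Itgb1, the integrin subunit shared by most matrix receptors, stood at 887, 1051 and 1082 units and Lrp1, an endocytic receptor of thrombospondins, at 489.8, 519 and 629. Sdc1 and Anxa2 averaged 413 ± 69.6 and 403 ± 33.0 units. Among subunits known to bind periostin and tenascins, Itgav was at 243, 259 and 232 units and Itgb5 at 92.7, 108 and 124. Itgb3 was at 4.54, 5.05 and 4.45 and Itgb6 at 1.25, 2.14 and 1.58. In the same list, Itga8 was at 118, 147 and 174 units and Itga9 at 43.4, 54.9 and 59.1. Cd47 stood at 145, 113 and 126 units and Cd36 at 15.5, 16.3 and 16.4. These subunits, Cd47 and Cd36 were singled out after their values were seen.

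Wide spans were common among matrix partners, the collagens and other proteins that these genes' products bind. Of 12 with a mean of at least 10, 7 spanned 1.5-fold, against 6.15% of all genes, and 10 were highest in replicate 3, against 34.6%. Col3a1 stood at 2100.3, 3325 and 3682 units, Col5a1 at 244, 307 and 424 and Col14a1 at 52.6, 105 and 132, all lowest in replicate 1 as Postn was. Col1a1 (9950, 4719 and 13715) and Lox, the collagen crosslinking enzyme (215, 101 and 256), were lowest in replicate 2 and highest in replicate 3, as Sparc was. Col1a2 (2809, 3890 and 5371) was lowest in replicate 1 and Dcn (215, 131 and 202) in replicate 2. Vcan stood at 1512, 1762 and 1747 units, a span of 1.17 against a median of 1.15 over all genes. Of 13 TGF-beta genes with a mean of at least 10, 1 spanned 1.5-fold, a share near the 6.15% of all genes, namely Ltbp1 at 17.7, 14.9 and 25.9 units. Tgfb3, Tgfb2, Mmp14 and Tgfbr2 averaged 645 ± 35.6, 467 ± 49.2, 314 ± 28.8 and 266 ± 13.4 units.

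Genes with the most similar profile over the 3 libraries were found by Euclidean distance of log2 deviations among 2104 or 2105 genes with a mean of at least 100. For Postn they were Igfbp5, Ogn and Itm2a, at distances of 0.194, 0.197 and 0.222, and none lay within 0.1. Ogn, a small proteoglycan, was at 171, 343 and 454 units. The nearest to Tnn was Thbs1, at 0.310, and the nearest to Thbs1 were Fbn2, Col4a2 and Col8a1, at 0.171, 0.193 and 0.193. Thbs2 was nearest to Fn1 (0.0139), at 1223, 1538 and 1750 units, then Mfap4 and Igfbp3, and Sparc to Sfrp2 (0.0397), Mmp2 and Scarf2. Smoc2 was nearest to Rap1gds1, Kank2 and App, with 41 genes within 0.1, and Sparcl1 to Cyfip1, Spcs3 and Usp24, with 120. Tnc had 629 genes within 0.1, led by Pnrc1, Marchf6 and Tgfbr2, because a flat profile is common. With 3 libraries such profiles hold little detail.

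Reads of overlapping genes could enter few of these values. Tnc shares 176 exon bases with 8030451A03Rik and Thbs1 208 with Gm29233, both on the opposite strand, and the strand setting of the counting is not given in the sources used here. Those partners had at most 0.604 and 0.116 units.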

How the data were processed

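Gene expression was measured by RNA sequencing in 3 DKO libraries. The authors deposited a normalized signal per gene, from reads aligned with TopHat2 2.0.8 to mm10, per the submitters' processing notes. The 75th percentile was 44.7 in each deposited column, so libraries were scaled to a common upper quartile. Counter, annotation and strand setting: not given in the sources used here. Each column was assigned to the library that bears its number. Of low values (up to 20 times the smallest), 82.6%, 82.4% and 82.5% came within 0.1 of being a whole multiple, short of the 95% required, so whole reads were not recovered and count models were not used. If the smallest value is 1 read, depth was 33863066, 34900647 and 41477624 reads. Errors given from it cover counting only.

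Values were divided by union exon length from GENCODE M21 (18948 genes matched by symbol and place). Differences used log2(value + 1) and Python 3.11.15 with scipy 1.17.1. Procedures were tested on simulated data. Alternatives varied libraries, scaling, filter, pseudocount and length. Genes named from lists were the 4 highest by mean and those with a mean of at least 10 and a 1.5-fold span, and the 3 nearest genes were named per member. Members and lists were chosen with earlier results of these data known. No protein sequences were used here, and some items are not reported here.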

Additional observations from a re-analysis of the deposited data

How the results depend on the processing

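The direction of 5 of the 6 within-library differences was the same under every alternative run (a library left out, no division by length, pseudocounts of 0 and 10, longest transcript), which says nothing about their p, since 3 libraries cannot give less than 0.25. Postn minus Tgfbi, 0.09 over all libraries, ranged from -0.17 to 0.61 with a library left out, being -0.16 without replicate 2 and -0.17 without replicate 3, because replicate 1 has the opposite sign. The count of 3 members spanning 1.5-fold ranged from 1 to 3 with a library left out, was 4 with no filter on low values, where Tnxb enters, and 2 at a mean of at least 100. Rescaling to equal totals, dropping mitochondrial and ribosomal RNA genes, and pseudocounts of 1 and 10 left it at 3. The share over all genes is not given for these alternatives, so their counts have no reference beside them. All 8 members stayed highest in replicate 3 under both rescalings, an alternative added after seeing the data, as was ordering by longest transcript. In the order per kilobase, 7 of 10 places were kept without division by length and 8 to 10 with a library left out. Mean levels moved by less than 1 SD in the 40 alternatives run, as they must when 1 of 3 libraries is left out. No paired analysis was possible because there is 1 group. Tests on recovered reads were not run. Depth limits Tnxb.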
